A study of Mus musculus with 24 samples.

Results

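The genes described here are the Wnt ligands, their Frizzled and Lrp receptors, the R-spondins with their receptor Lgr5, the secreted Wnt antagonists and the feedback gene Axin2. They were chosen by symbol alone from the array's gene annotation, with the patterns Wnt, Fzd, Sfrp, Dkk and Rspo followed by a number and the names Wif1, Frzb, Lrp5, Lrp6, Axin2 and Lgr5. The rule found 47 of the 18193 genes on the arrays. These were 19 Wnt ligands, 12 Frizzled and Lrp receptors, 5 genes of the R-spondins and Lgr5, 10 secreted antagonists and Axin2. No measured value entered this rule, but the genes were chosen with earlier results of these data known.

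Wnt proteins are secreted, lipid-modified signals. They are held by Frizzled receptors, with Lrp5 or Lrp6 as co-receptor for the branch that stabilises beta-catenin and turns on target genes such as Axin2, or with other partners for the branches that act on cell polarity and movement. Secreted frizzled-related proteins (Sfrp genes and Frzb) and Wif1 bind the ligands, Dickkopf proteins (Dkk genes) other than the divergent Dkk3 act on the co-receptors, and R-spondins, through Lgr receptors, keep Frizzled receptors at the cell surface. In the embryo Wnt signals pattern the body axis, and in the somite and the neural tube they bear on the muscle and neuronal lineages.

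The study ran 24 microarrays of mouse RNA, 3 for each of 8 groups. MEFs, fibroblasts from embryos of Myod-/-/Myf5-/- mice, were measured after transduction with a MyoD lentivirus, beside untransduced MEFs of the same batch 1, and after transduction with a virus labelled NeuroD2, beside untransduced MEFs of batch 2. P19 cells, a mouse embryonal carcinoma line that can be turned into neurons or muscle, were measured with MyoD beside untransduced P19 cells of batch 1, and with NeuroD2 beside untransduced P19 cells of batch 3. MyoD and NeuroD2 are basic helix-loop-helix transcription factors of the skeletal muscle and the neuronal lineage. All MEFs, controls included, lack Myod1 and Myf5. Transduced cells received virus in 8 µg/ml polybrene and fresh medium after 24 hours. P19 cells were harvested at 72 hours. MEFs with MyoD were put into differentiation medium with horse serum, insulin and transferrin at 48 hours and harvested 36 to 40 hours after that. No harvest time was found in the labels for MEFs labelled NeuroD2. The labels name neither that medium for the untransduced MEFs nor a control virus, so the effects of virus, medium and MyoD cannot be told apart in MEFs, nor those of virus and factor in the other comparisons. Nor do the labels name the promoter driving the factors. Whether replicates came from separate cultures is not stated. The p-values therefore weigh differences only against the scatter of these arrays, and that scatter may be technical.

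Values are log2 signals as deposited, with 1 probe set per gene. A gene was called, and is said to have risen or fallen, where the limma p-value adjusted over all 18193 genes was under 0.05. In batch 1, the second of the P19 control arrays was unlike all others: it had an upper quartile of 7.63, against 8.23 to 8.39 elsewhere, and 19 of the 47 Wnt genes differed there by more than 1 from the mean of replicates 1 and 3 while those lay within 0.5 of each other. The same held for 33.2% of all genes. This aberrant P19 array widens the spread in the fit. Counts of Wnt genes called in comparisons of 2 groups within a batch are also given without it. Counts for gaps between effects, for batches and for the other pathway lists keep it, apart from the closing ranges over single arrays left out. P19 control replicate 1 of batch 3 departed by the same measure for 4 Wnt genes, 3 of them low (Fzd1, Fzd3 and Wnt4) and 1 high (Wnt8a). There 3.37% of all genes did. Myod1 rose by 5.55 in MEFs and by 3.94 in P19 cells with MyoD (adjusted p = 3.48e-18 and 3.76e-14). In P19 cells with NeuroD2, a single Neurod2 probe set of the 3 was called, 1.70 higher than in controls (adjusted p = 1.85e-06). In the MEFs labelled NeuroD2 none was, with differences of -0.06, 0.21 and -0.12 (adjusted p = 0.943, 0.679 and 0.791), so that label is used below as a label only. The labels call every transduced group neuronally differentiated. Of 8 neuron markers, 8 rose in P19 cells with NeuroD2, and 1 rose in each of the other transduced groups. Of 8 skeletal muscle markers, 8 rose in MEFs and 6 in P19 cells with MyoD. The 8 fibroblast markers averaged between 12.55 and 12.92 in untransduced MEFs, and the 8 markers of pluripotent cells between 9.55 and 10.39 in the P19 groups.

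Many of the Wnt genes were dim. Of the 47 genes, 27 had a mean above 7.03, the median of all gene values, in at least 1 group, and 20 were at or below it in every group. Over all genes, 10936 of 18193 had a mean above 7.03 in at least 1 group, a similar share. Of the 47 genes, 15 passed in no comparison of groups within a batch, and 12 of those 15 were among the dim ones, while 8 dim genes were called somewhere. The 12 were Wnt2, Wnt2b, Wnt3, Wnt3a, Wnt6, Wnt8b and Wnt10a among the ligands, Rspo2 and Rspo4, and the antagonists Dkk4, Sfrp5 and Wif1. The other 3 of the 15 were Fzd1, Sfrp4 and Wnt7a. Signals near the floor of the array are compressed, so a missing call there does not show that the gene did not change.

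In MEFs, 4 secreted antagonists were lower in both comparisons. Sfrp1, Sfrp2, Dkk2 and Dkk3 fell, and Axin2, which beta-catenin signalling raises in most cells, rose. Of 18 other beta-catenin targets, 0 rose and 1 fell with MyoD, and 2 rose and 3 fell in MEFs labelled NeuroD2. Of the 47 genes, 5 rose and 7 fell with MyoD (10.6% and 14.9%), where 10.8% and 14.5% of all genes did. That share is close to the background, and the description is therefore of which genes moved. In MEFs labelled NeuroD2, 5 rose and 9 fell (10.6% and 19.1%), where 6.41% and 5.94% of all genes did. The median difference over the 47 genes was 0.02 with MyoD and -0.06 in MEFs labelled NeuroD2, against 0.00 and -0.02 over all genes. Without the aberrant P19 array, 5 rose and 10 fell with MyoD (18.1% and 22.5% of all genes), and 6 rose and 11 fell in MEFs labelled NeuroD2 (13.8% and 13.3% of all genes).

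**Figure D1:**
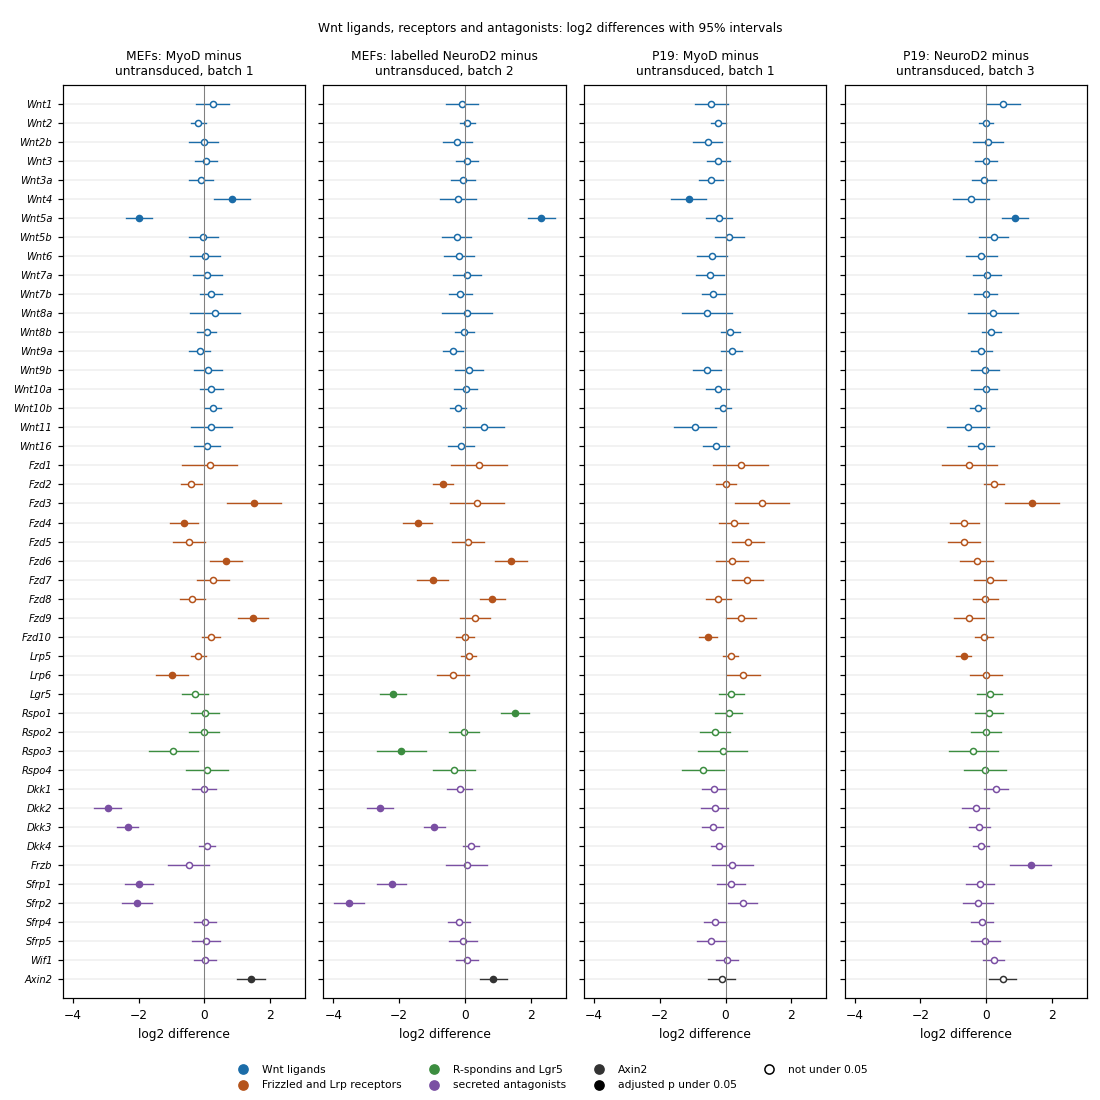
Log2 difference of each Wnt gene (rows, coloured by role) in the 4 comparisons of transduced with untransduced cells of the same batch, with 95% intervals; filled points had a limma adjusted p under 0.05. Filled points are most numerous in the 2 MEF panels (12 and 14 of 47), where Sfrp1, Sfrp2, Dkk2 and Dkk3 lie to the left of 0 in both, and fewer in the P19 panels.

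Sfrp2, a secreted protein that binds Wnt ligands, read 5.31, 4.94 and 5.14 in MEFs with MyoD, against 7.17, 7.22 and 7.12 in untransduced MEFs of batch 1. In MEFs labelled NeuroD2 it read 4.76, 5.04 and 4.97, against 8.58, 8.37 and 8.38 in untransduced MEFs of batch 2. All 6 transduced arrays lay below all 6 controls. It fell by 2.04 ± 0.21 (log2, SE, n = 3 per group, limma adjusted p = 1.85e-07), or 4.12-fold, with MyoD and by 3.52 ± 0.21 (adjusted p = 1.19e-10), or 11.5-fold, in MEFs labelled NeuroD2. The 2 falls differed from each other by 1.48 ± 0.30 (MyoD minus labelled NeuroD2, adjusted p = 0.0011), and the controls of the 2 batches differed too, at 8.44 ± 0.12 in batch 2 and 7.17 ± 0.05 in batch 1 (SD, n = 3 each, adjusted p = 0.00163). With the controls of the other batch Sfrp2 fell by 3.31 with MyoD and fell by 2.25 in MEFs labelled NeuroD2.

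Its relative Sfrp1 had 6.29, 6.57 and 6.43 in MEFs with MyoD, against 8.61, 8.51 and 8.15 in their controls, and 6.82, 7.10 and 6.98 in MEFs labelled NeuroD2, against 9.18, 9.17 and 9.24 in theirs. The transduced and untransduced arrays did not overlap in either batch. Sfrp1 fell by 1.99 ± 0.20 with MyoD (adjusted p = 1.34e-07) and fell by 2.23 ± 0.20 in MEFs labelled NeuroD2 (adjusted p = 6.51e-08). Of its 4 other probe sets, 3 fell in both comparisons, by between 0.72 and 2.58 with MyoD and between 2.04 and 3.23 in MEFs labelled NeuroD2, and the other did not pass in either. In MEFs labelled NeuroD2, Sfrp1 fell by 1.46 when set against the controls of batch 1.

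Dkk2, a Dickkopf protein that acts on Lrp5 and Lrp6, had 6.30, 6.03 and 6.34 in MEFs with MyoD, against 9.03, 9.19 and 9.26 in untransduced MEFs of batch 1. The MEFs labelled NeuroD2 had 5.09, 5.89 and 5.39, against 8.23, 8.31 and 7.58 in untransduced MEFs of batch 2. The groups stayed apart in each batch. Dkk2 fell by 2.94 ± 0.19, or 7.67-fold, with MyoD (adjusted p = 1.21e-10) and fell by 2.58 ± 0.19, or 5.99-fold, in MEFs labelled NeuroD2 (adjusted p = 2.80e-09). With the controls of the other batch Dkk2 fell by 1.82 with MyoD and kept its call.

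Dkk3, a divergent member of the Dickkopf family counted among the antagonists by its symbol, fell more with MyoD than in MEFs labelled NeuroD2. It had 8.25, 8.12 and 8.09 in MEFs with MyoD, against 10.52, 10.57 and 10.36 in their controls, and fell by 2.33 ± 0.15 (adjusted p = 1.45e-10). It had 10.08, 10.09 and 9.92 in MEFs labelled NeuroD2, against 10.95, 10.91 and 11.03 in their controls, and fell by 0.93 ± 0.15 (adjusted p = 0.000172). The gap between these 2 differences was -1.40 ± 0.22 (MyoD minus labelled NeuroD2, adjusted p = 6.19e-05). A second probe set of Dkk3 fell by 2.44 and 1.04. Against the controls of batch 1, Dkk3 in MEFs labelled NeuroD2 differed by -0.45 and was not called (adjusted p = 0.0505). The other 6 antagonists (Dkk1, Dkk4, Frzb, Sfrp4, Sfrp5 and Wif1) were not called in either MEF comparison, with differences between -0.48 and 0.09 with MyoD and between -0.18 and 0.19 in MEFs labelled NeuroD2.

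Counting all roles, 5 of the 7 Wnt genes that fell with MyoD also fell in MEFs labelled NeuroD2 (71.4% of the first list and 55.6% of the second). Over all genes these shares were 22.3% and 54.4%. The 5 were Dkk2, Dkk3, Sfrp1, Sfrp2 and Fzd4. The comparisons have separate controls. Fibroblast markers were lower as well: of 8, 6 fell with MyoD (list mean 10.63 to 10.80, against 12.55 to 12.74 in the controls) and 1 in MEFs labelled NeuroD2 (12.37 to 12.44, against 12.84 to 12.92). Their part in the fall of the antagonists was not tested. In RNA from whole cultures, fewer cells of a type and less RNA per cell cannot be told apart.

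**Figure D2:**
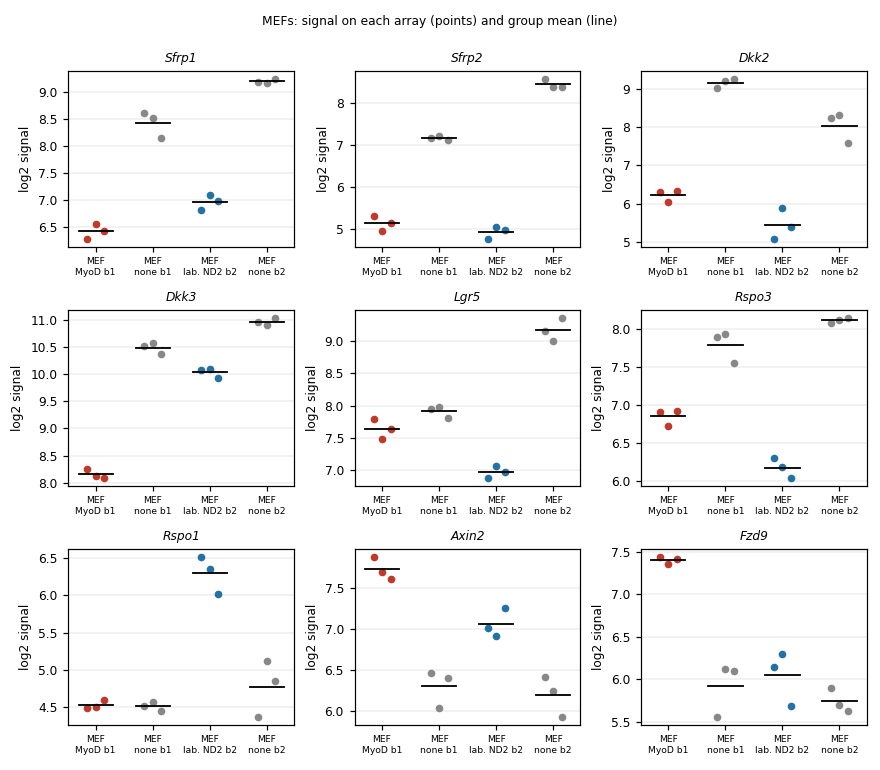
Log2 signal of 9 Wnt genes on each MEF array (points; red, MyoD; blue, labelled NeuroD2, "lab. ND2"; grey, untransduced, "none"; b1 and b2 are the batches) with group means as lines; each panel has its own axis, which does not start at 0. Sfrp1, Sfrp2, Dkk2 and Dkk3 were lower than their own controls in both batches, Lgr5 and Rspo3 fell and Rspo1 rose in MEFs labelled NeuroD2, and Fzd9 rose with MyoD.

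The sequence upstream of Sfrp2 and Dkk2 is shown because both genes fell in both MEF comparisons. Each window runs from 250 bases before to 50 after the gene's start, 5′ to 3′ on the gene's strand, from RefSeq on GRCm38.p6. Sfrp2 is at chr3:83766071-83766370 and Dkk2 at chr3:132085042-132085341, both on the + strand. Capitals would mark a match, on either strand. One motif searched was the E-box CANNTG, the site class of basic helix-loop-helix factors, of which CAGCTG was also counted alone. Another form of it counted alone was CAGATG. The Tcf/Lef core was searched as CTTTGAA. Its variant CTTTGAT was included. So was the variant CTTTGTT. Neither window has a match.
Sfrp2: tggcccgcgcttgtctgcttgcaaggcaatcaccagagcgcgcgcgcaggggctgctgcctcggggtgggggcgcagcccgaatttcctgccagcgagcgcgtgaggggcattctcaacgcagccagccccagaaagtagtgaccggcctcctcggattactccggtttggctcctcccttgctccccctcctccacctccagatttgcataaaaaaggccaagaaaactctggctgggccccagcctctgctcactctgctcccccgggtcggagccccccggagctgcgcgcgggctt
Dkk2: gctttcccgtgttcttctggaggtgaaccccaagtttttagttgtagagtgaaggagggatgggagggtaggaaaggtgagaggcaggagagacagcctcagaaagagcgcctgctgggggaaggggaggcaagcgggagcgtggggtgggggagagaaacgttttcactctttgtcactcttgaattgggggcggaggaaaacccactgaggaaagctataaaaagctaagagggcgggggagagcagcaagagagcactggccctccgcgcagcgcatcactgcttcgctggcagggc
Of 32841 windows of this length in RefSeq, 72.3% hold CANNTG, 16.3% CAGCTG, 17.2% CAGATG or its reverse complement, and 13.9% a Tcf/Lef core. Windows were found for 30 of the 47 Wnt genes (33 windows), and of these 33 windows 66.7% hold CANNTG, 9.09% CAGCTG, 6.06% CAGATG and 15.2% a Tcf/Lef core. A match, or none, is a description of these letters in this window only. The 17 genes without a window here are Dkk3, Dkk4, Fzd2, Fzd3, Fzd6, Fzd8, Lgr5, Lrp5, Lrp6, Rspo2, Rspo3, Sfrp1, Sfrp4, Wnt5a, Wnt7b, Wnt8a and Wnt10a.

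Axin2, a scaffold of the complex that destroys beta-catenin and one of the most used readouts of Wnt signalling, rose in both MEF comparisons. It had 7.87, 7.69 and 7.61 in MEFs with MyoD, against 6.46, 6.04 and 6.41 in untransduced MEFs of batch 1. In MEFs labelled NeuroD2 it had 7.01, 6.91 and 7.25, against 6.41, 6.24 and 5.93 in untransduced MEFs of batch 2. The groups did not overlap. The rises were 1.42 ± 0.20, or 2.68-fold, with MyoD (adjusted p = 8.79e-06) and 0.86 ± 0.20, or 1.81-fold, in MEFs labelled NeuroD2 (adjusted p = 0.00435). A second, dimmer Axin2 probe set differed by 0.34 and 0.20 and was not called. In P19 cells Axin2 was not called with either factor: it had 8.32, 8.58 and 8.12 with MyoD, against 8.69, 8.03 and 8.64 without, and 10.00, 9.58 and 9.63 with NeuroD2, against 9.60, 9.11 and 8.97 without. The differences were -0.11 (adjusted p = 0.675) and 0.51 (adjusted p = 0.148). The second became a call without this aberrant P19 array (adjusted p = 0.0347). The difference of Axin2 with MyoD was larger in MEFs than in P19 cells by 1.53 ± 0.28 (adjusted p = 0.000359).

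The Axin2 window is shown as the case of a target gene that rose in both MEF comparisons. It lies at chr11:108920099-108920398 on the + strand (RefSeq, GRCm38.p6), 70.0% of its bases are G or C, and it has none of the 4 motifs.
Axin2: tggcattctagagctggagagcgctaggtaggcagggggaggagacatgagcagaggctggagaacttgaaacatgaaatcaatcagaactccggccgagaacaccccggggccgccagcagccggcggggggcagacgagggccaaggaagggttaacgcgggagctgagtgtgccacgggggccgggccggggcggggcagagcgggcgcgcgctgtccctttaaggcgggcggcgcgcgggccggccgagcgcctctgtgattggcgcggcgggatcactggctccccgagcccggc

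Among the ligands, Wnt5a moved in opposite directions in the 2 MEF comparisons. Wnt5a is the best known ligand of the beta-catenin-independent branch and acts through Ror2 and several Frizzled receptors. It had 7.14, 7.06 and 7.24 in MEFs with MyoD, against 9.07, 9.23 and 9.10 in untransduced MEFs of batch 1. It had 11.12, 11.04 and 11.12 in MEFs labelled NeuroD2, against 8.85, 8.87 and 8.59 in untransduced MEFs of batch 2. Neither pair overlapped. It fell by 1.99 ± 0.19, or 3.97-fold, with MyoD (adjusted p = 4.57e-08) and rose by 2.32 ± 0.19, or 5.01-fold, in MEFs labelled NeuroD2 (adjusted p = 1.14e-08). The gap between these 2 differences was -4.31 ± 0.27 (MyoD minus labelled NeuroD2, adjusted p = 1.11e-10). The controls had 8.77 ± 0.16 in batch 2 and 9.13 ± 0.09 in batch 1 (SD, n = 3 each), a difference of -0.36 that was not called. Its 3 other probe sets fell with MyoD, by 0.43 to 1.91, and rose in MEFs labelled NeuroD2, by 0.85 to 2.67.

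Wnt5a also rose in P19 cells with NeuroD2, to 7.15, 7.68 and 7.84, against 6.24, 6.80 and 7.02 in untransduced P19 cells of batch 3, by 0.87 ± 0.19 (adjusted p = 0.00464). All 3 transduced arrays were above all 3 controls, but the lowest and the highest of the 2 groups lay close, at 7.15 and 7.02. With MyoD the P19 cells had 5.44, 5.66 and 5.41, against 5.85, 5.31 and 5.95 without, a difference of -0.20 that was not called. The difference from control was larger in MEFs labelled NeuroD2 than in P19 cells with NeuroD2 by 1.46 ± 0.27 (adjusted p = 0.000696). The rise of Wnt5a in P19 cells was 1.85 when set against the controls of batch 1. Over the 8 groups the mean of Wnt5a ran from 5.50 ± 0.14 in P19 cells with MyoD and 5.70 ± 0.34 in P19 controls of batch 1, which overlapped, through 6.69 ± 0.40 in P19 controls of batch 3, 7.15 ± 0.09 in MEFs with MyoD, 7.55 ± 0.36 in P19 cells with NeuroD2, and 8.77 ± 0.16 and 9.13 ± 0.09 in untransduced MEFs, to 11.10 ± 0.04 in MEFs labelled NeuroD2 (SD, n = 3 each).

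Wnt4, a ligand of kidney, gonad and muscle development, moved in opposite directions with MyoD in the 2 cell types. In MEFs with MyoD it had 7.86, 7.68 and 7.84, against 6.83, 7.01 and 6.98 in their controls, a rise of 0.86 ± 0.26 (adjusted p = 0.0186). P19 cells with MyoD had 7.04, 7.24 and 6.79, against 8.25, 7.79 and 8.41 without, and fell by 1.13 ± 0.26 (adjusted p = 0.0209), or 1.31 (adjusted p = 0.00676) without this aberrant P19 array. The groups did not overlap in either cell type, and the effect differed between MEFs and P19 cells by 1.98 ± 0.37 (MEFs minus P19, adjusted p = 0.000467). A second probe set of Wnt4 moved the same way in both, by 0.68 in MEFs (adjusted p = 0.00043) and by -1.15 in P19 cells (adjusted p = 1.4e-05). Each call of the main probe set is near the threshold: it was lost when some single arrays were left out and when the controls of the other batch were used. With NeuroD2, Wnt4 was not called in either cell type.

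**Figure D3:**
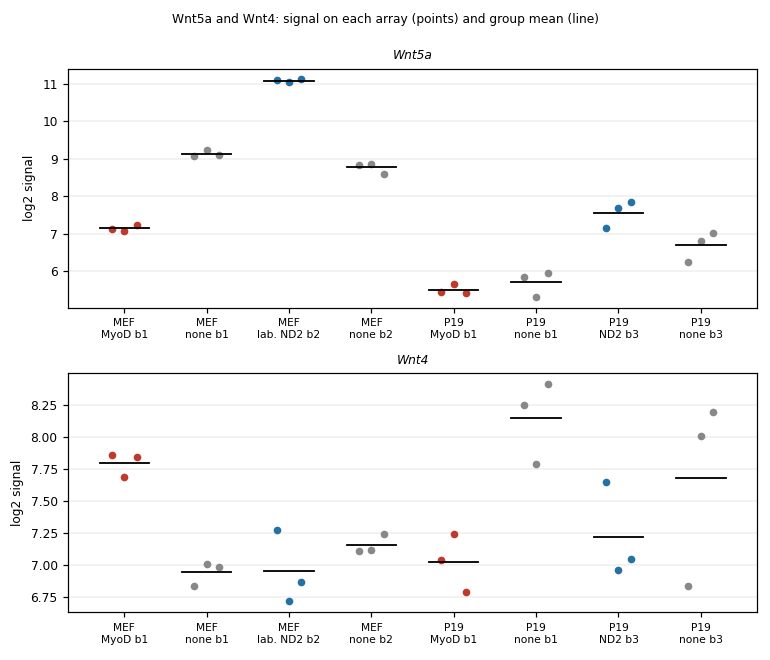
Log2 signal of Wnt5a and Wnt4 on every array (points; red, MyoD; blue, NeuroD2 or labelled NeuroD2, "ND2"; grey, untransduced, "none"; b1 to b3 are the batches) with group means as lines; axes do not start at 0. In MEFs Wnt5a was lower with MyoD and higher in those labelled NeuroD2, and Wnt4 was higher with MyoD in MEFs and lower with MyoD in P19 cells.

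Wnt4 is shown with the bases before its start because it moved with MyoD in both cell types. Its window at chr4:137277385-137277684, + strand (RefSeq, GRCm38.p6), is 84.3% G or C and has 1 CANNTG match, in capitals, at positions -15 to -10 from the start.
Wnt4: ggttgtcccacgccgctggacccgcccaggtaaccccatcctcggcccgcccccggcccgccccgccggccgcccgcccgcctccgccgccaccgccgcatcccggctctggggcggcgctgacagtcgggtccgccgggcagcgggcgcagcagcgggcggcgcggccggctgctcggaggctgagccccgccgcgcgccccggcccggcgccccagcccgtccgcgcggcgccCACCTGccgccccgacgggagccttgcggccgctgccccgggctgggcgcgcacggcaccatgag

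The other 17 ligands were not called in either MEF comparison. Their differences lay between -0.18 (Wnt2) and 0.31 (Wnt8a) with MyoD, and between -0.37 (Wnt9a) and 0.57 (Wnt11) in MEFs labelled NeuroD2. In P19 cells 18 ligands were not called in each comparison, in a range of -0.93 (Wnt11) to 0.19 (Wnt9a) with MyoD and of -0.55 (Wnt11) to 0.52 (Wnt1) with NeuroD2. The aberrant P19 array read high for several dim ligands, with 7.18 for Wnt8a, against 5.57 and 5.58 in replicates 1 and 3, and 6.87 for Wnt1, against 5.62 and 5.80. That array enters the P19 comparison with MyoD and the comparison of the untransduced cells.

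Of the 5 R-spondin and Lgr5 genes, Rspo1 rose and Lgr5 and Rspo3 fell in MEFs labelled NeuroD2, where 6.41% of all genes rose and 5.94% fell, and Rspo2 and Rspo4 were not called (-0.02 and -0.33). Lgr5, the receptor of R-spondins known from stem cells of the gut and hair follicle, had 6.89, 7.07 and 6.98 there, against 9.15, 9.00 and 9.35 in untransduced MEFs of batch 2. Rspo3 had 6.30, 6.18 and 6.04, against 8.07, 8.12 and 8.14. Rspo1 had 6.52, 6.36 and 6.02, against 4.37, 5.11 and 4.84. None of these 3 pairs overlapped: Lgr5 and Rspo3 were low and Rspo1 high in every transduced array. Lgr5 fell by 2.19 ± 0.19 (adjusted p = 2.19e-08), Rspo3 fell by 1.94 ± 0.36 (adjusted p = 0.000542), and Rspo1 rose by 1.53 ± 0.20 (adjusted p = 1.11e-05). Second, dimmer probe sets of Lgr5 and Rspo3 differed by -0.12 and 0.11 and were not called.

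With MyoD none of the 5 genes of this branch was called in MEFs. Lgr5 had 7.79, 7.49 and 7.63 with MyoD, against 7.95, 7.97 and 7.81 without (difference -0.27, adjusted p = 0.378), and Rspo3 had 6.91, 6.71 and 6.92, against 7.90, 7.92 and 7.55. The Rspo3 arrays did not overlap, and its difference of -0.94 missed the threshold (adjusted p = 0.0605) but passed without this aberrant P19 array (adjusted p = 3.66e-06). For Lgr5 and Rspo1 the differences from control in the 2 MEF comparisons were unequal, by 1.92 ± 0.26 and -1.51 ± 0.29 (MyoD minus labelled NeuroD2, adjusted p = 1.31e-05 and 0.000503). The Lgr5 comparison rests on controls that were themselves unequal: 9.17 ± 0.18 in batch 2 and 7.91 ± 0.09 in batch 1 (adjusted p = 0.000504). Against the controls of batch 1, the MEFs labelled NeuroD2 were lower by 0.93, still a call. In P19 cells Lgr5 was dim and not called, at 5.44, 5.71 and 5.44 with MyoD, against 5.38, 5.61 and 5.07, and at 5.46, 5.30 and 5.39 with NeuroD2, against 5.88, 5.06 and 4.90.

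The receptors moved in both directions. With MyoD in MEFs, Fzd3, Fzd6 and Fzd9 rose and Lrp6 and Fzd4 fell. Fzd3, a receptor needed for axon tracts, had 7.71, 7.56 and 7.68, against 6.36, 5.84 and 6.21. Fzd9 had 7.44, 7.36 and 7.41, against 5.56, 6.12 and 6.09. Every transduced array was above every control for both genes, with rises of 1.51 ± 0.39 for Fzd3 (adjusted p = 0.00564) and 1.48 ± 0.22 for Fzd9 (adjusted p = 1.67e-05). The 5 other Fzd3 probe sets gave 2 further rises and 3 without a call. Lrp6, the co-receptor of the beta-catenin branch, had 9.21, 9.19 and 9.20, against 10.28, 10.17 and 10.08, and fell by 0.98 ± 0.24 (adjusted p = 0.00344), and its second probe set matched (-0.98). Against the controls of batch 2 Lrp6 differed by -0.49 and was not called (adjusted p = 0.145). Lrp5 had 6.27, 6.17 and 5.99, against 6.35, 6.34 and 6.30, and was not called (-0.19, adjusted p = 0.277). Fzd4 and Fzd6 moved by -0.62 and 0.66 (adjusted p = 0.0353 and 0.0451), close to the threshold.

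In MEFs labelled NeuroD2, Fzd6 and Fzd8 rose and Fzd2, Fzd4 and Fzd7 fell. Fzd4, a receptor of retinal vessels that also takes the ligand Norrin, had 6.60, 6.81 and 7.19, against 8.45, 8.31 and 8.16. Fzd6 had 7.81, 7.92 and 7.64, against 6.62, 6.56 and 6.01. Neither pair overlapped. Fzd4 fell by 1.44 ± 0.21 (adjusted p = 3.73e-05) and Fzd6 rose by 1.39 ± 0.24 (adjusted p = 0.000213). Fzd7 fell by 0.99 ± 0.23 and Fzd2 by 0.66 ± 0.15, and Fzd8 rose by 0.83 ± 0.18 (adjusted p = 0.00496, 0.00352 and 0.00304). One other probe set each of Fzd2, Fzd4, Fzd7 and Fzd8 was called in the same direction, 1 further set each of Fzd2 and Fzd4 was not, and neither of those of Fzd6 was. Against the controls of batch 1, the difference for Fzd6 was 0.46, for Fzd7 -0.54 and for Fzd2 -0.25, none of them a call (adjusted p = 0.234, 0.134 and 0.327). Lrp5 and Lrp6 differed by 0.12 and -0.36 and were not called, though the second Lrp6 probe set fell by 0.43 (adjusted p = 0.0169). For Fzd7, Fzd8 and Fzd9 the differences from control in the 2 MEF comparisons were unequal, by 1.25, -1.20 and 1.17 (MyoD minus labelled NeuroD2, adjusted p = 0.00804, 0.00166 and 0.00832). In all, 9 of the 47 genes differed in this way (5 higher and 4 lower with MyoD), where 18.8% of all genes did. Batch, medium and factor cannot be told apart in these gaps.

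In P19 cells the count of calls depended on the arrays used. With MyoD 0 rose and 2 fell (0% and 4.26%), where 2.03% and 0.676% of all genes did. With NeuroD2 3 rose and 1 fell (6.38% and 2.13%), close to the 5.1% and 3.24% of all genes. Without the aberrant P19 array the counts were 0 and 3 with MyoD, with Rspo3 added (-0.83, adjusted p = 0.00119), and 5 and 5 with NeuroD2, beside 2.09%, 1.85%, 10.9% and 11.2% of all genes. The total called with MyoD ran from 0 to 18 when single arrays were left out: it was 18 without P19 control replicate 3, 15 without control replicate 1, and 0 without MyoD replicate 1 or replicate 3. It was 8 with array weights and 10 with the controls of batch 3. With NeuroD2 the total was 17 with array weights, 15 with the controls of batch 1, 10 with the aberrant P19 array left out of the fit and 8 without control replicate 1 of batch 3, and between 3 and 5 without any other single array of the 2 groups. The median difference over the 47 genes was -0.21 with MyoD and -0.03 with NeuroD2, against 0.04 and -0.05 over all genes.

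Fzd10, beside Wnt4 the other gene that fell with MyoD, had 7.61, 7.53 and 7.66 in P19 cells with MyoD, against 8.16, 8.02 and 8.20 in untransduced P19 cells of batch 1. The groups did not overlap, and Fzd10 fell by 0.53 ± 0.13 (adjusted p = 0.0315). It lost its call when any 1 of the 3 MyoD arrays was left out. A second, dimmer Fzd10 probe set was not called. Fzd3 had 10.68, 10.64 and 10.78 with MyoD, against 10.16, 8.57 and 10.04, and its difference of 1.11 was not called. Lrp5 and Lrp6 differed by 0.15 and 0.54 and were not called either (adjusted p = 0.306 and 0.15).

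With NeuroD2, Frzb, the secreted frizzled-related protein also known as Sfrp3, had 7.75, 6.95 and 7.09 in P19 cells, against 5.57, 6.30 and 5.87 in untransduced P19 cells of batch 3. The 2 groups did not overlap, and the rise was 1.35 ± 0.30, or 2.55-fold (adjusted p = 0.00459). A second probe set rose by 1.01 (adjusted p = 0.0015). Frzb differed by 0.67 from the controls of batch 1 and was then not called (adjusted p = 0.089). Lrp5 had 7.47, 7.78 and 7.83 with NeuroD2, against 8.48, 8.21 and 8.41, and fell by 0.68 ± 0.11 (adjusted p = 0.000216), again with no overlap. The Lrp5 result depends on the batch of the controls, since untransduced P19 cells had 8.37 ± 0.14 in batch 3 and 6.21 ± 0.10 in batch 1 (SD, n = 3 each, difference 2.16, adjusted p = 1.49e-10). Against the batch 1 controls the sign turned, to 1.48 higher with NeuroD2.

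Fzd3 had 9.98, 10.67 and 10.57 in P19 cells with NeuroD2, against 8.02, 9.44 and 9.59 without. The transduced arrays were all higher, and the rise was 1.39 ± 0.39 (adjusted p = 0.0295). Control replicate 1, at 8.02, was the lowest, and the rise lost its call when that array was left out. The risen genes Fzd3, Frzb and Wnt5a have 9 other probe sets in all. Of these, 5 also rose with NeuroD2 in P19 cells and 4 were not called. Set against the controls of batch 1, Fzd3 differed by 0.81 and was not called (adjusted p = 0.113). Within these 3 controls the list means of marker genes were uneven, from 6.55 to 9.70 for 4 smooth muscle genes, from 8.71 to 9.83 for 5 epithelial genes and from 6.29 to 7.44 for 8 fibroblast genes. Their part in the Fzd3 result was not tested. The differences from control with MyoD and with NeuroD2 in P19 cells were unequal for Fzd5, Lrp5 and Wnt5a, 3 of the 47 genes, where 5.53% of all genes did. Fzd5 was called with neither factor alone.

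**Figure D4:**
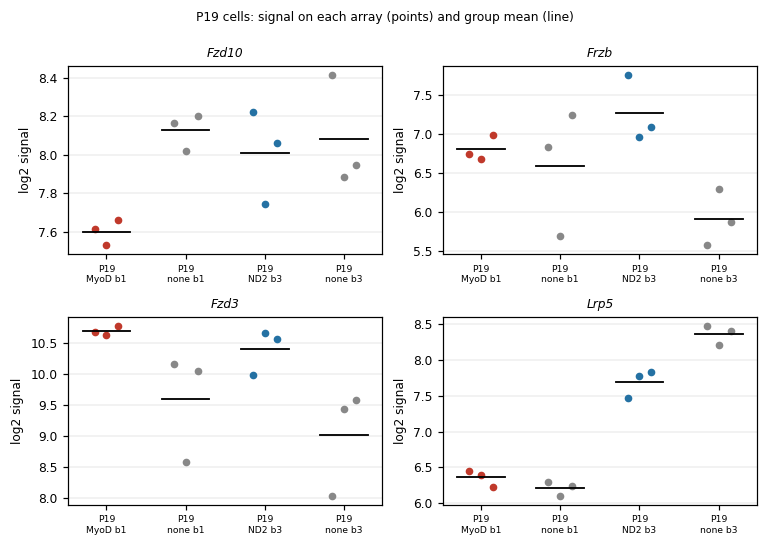
Log2 signal of the receptors Fzd10, Fzd3 and Lrp5 and the antagonist Frzb on each P19 array (points; red, MyoD; blue, NeuroD2, "ND2"; grey, untransduced, "none"; b1 and b3 are the batches) with group means as lines; axes do not start at 0. Frzb was higher and Lrp5 lower with NeuroD2 than in batch 3 controls, the Lrp5 controls of the 2 batches lay 2.16 apart, and Fzd3 had 1 low array in each group of controls.

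Frzb and Fzd10, called with NeuroD2 and with MyoD in P19 cells, are 2 of the 3 Wnt genes whose window holds CAGCTG (the other is Wnt9a), so they are shown. The Frzb window is chr2:80447347-80447646 on the - strand, with the motif at positions -17 to -12 from the start, and the Fzd10 window is chr5:128600856-128601155 on the + strand, with the motif at positions -240 to -235 (RefSeq, GRCm38.p6). Capitals mark CAGCTG, which is also a CANNTG.
Frzb: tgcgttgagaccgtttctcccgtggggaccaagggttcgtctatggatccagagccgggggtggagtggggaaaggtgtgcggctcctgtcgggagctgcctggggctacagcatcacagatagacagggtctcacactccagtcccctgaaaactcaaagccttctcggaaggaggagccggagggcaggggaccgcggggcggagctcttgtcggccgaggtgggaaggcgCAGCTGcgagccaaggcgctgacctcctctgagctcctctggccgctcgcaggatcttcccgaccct
Fzd10: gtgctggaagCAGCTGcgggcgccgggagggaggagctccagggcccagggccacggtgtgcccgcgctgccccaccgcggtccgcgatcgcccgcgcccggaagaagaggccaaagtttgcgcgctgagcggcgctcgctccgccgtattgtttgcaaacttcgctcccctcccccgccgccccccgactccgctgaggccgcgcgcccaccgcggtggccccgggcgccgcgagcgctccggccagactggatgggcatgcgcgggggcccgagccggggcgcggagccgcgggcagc

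The differences from control were compared between the cell types. With MyoD they differed in 12 of the 47 genes (4 higher and 8 lower in MEFs), where 21.1% of all genes differed. Between MEFs labelled NeuroD2 and P19 cells with NeuroD2 they differed in 12 (5 higher and 7 lower in MEFs), where 10.2% of all genes did. Those MEFs and their controls were in batch 2 and the P19 pair in batch 3, so cell type and batch cannot be told apart there. With MyoD, medium and harvest time also differed between the cell types, and the P19 controls included the aberrant array. Sfrp1, Sfrp2, Dkk2 and Dkk3 were in both lists, with lower differences in MEFs. Sfrp2 had the widest such gap under the NeuroD2 label, -3.27 ± 0.30 (MEFs minus P19, adjusted p = 1.32e-07), and Dkk2 with MyoD, -2.61 ± 0.27 (adjusted p = 3.79e-07). Dkk2 was dim in untransduced P19 cells, at 4.91 ± 0.23 in batch 1 and 4.91 ± 0.09 in batch 3 (SD, n = 3 each), so a fall there could hardly be read. Sfrp2 was not dim there: it had 9.26, 9.29 and 9.31 in P19 cells with MyoD, against 9.22, 7.94 and 9.13 without, and 9.03, 9.03 and 8.99 with NeuroD2, against 9.06, 9.43 and 9.32. Neither P19 difference was called.

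The untransduced cells of batch 1 gave the starting state. In MEFs 7 Wnt genes were higher and 21 lower than in P19 cells (14.9% and 44.7%), where 24.8% and 26.9% of all genes were. The median difference was -0.42 over the 47 genes and -0.12 over all genes. The 7 were the antagonists Dkk2 and Dkk3, the ligands Wnt5a and Wnt9a, Lgr5, Fzd2 and Fzd8. Dkk3 had 10.52, 10.57 and 10.36 in MEFs, against 5.89, 6.16 and 5.89 in P19 cells (4.50 ± 0.15, or 22.7-fold, adjusted p = 1.35e-15). Dkk2 had 9.03, 9.19 and 9.26, against 5.03, 4.64 and 5.04 (4.26 ± 0.19, adjusted p = 1.16e-13). Both were separate in every array. Wnt5a was higher by 3.43 ± 0.19 (10.8-fold), Lgr5 by 2.56 ± 0.19, and Wnt9a, a ligand of joint formation, by 1.97 ± 0.15 (adjusted p = 3.34e-12, 2.91e-10 and 5.27e-10). Fzd2 was higher by 1.25 ± 0.15 (adjusted p = 4.00e-07). Second, dimmer probe sets of Lgr5 and Wnt9a differed by -0.18 and -0.17 and were not called (limma adjusted p = 0.324 and 0.549). Of 31 other probe sets of genes called in this comparison, 22 were called the same way, 0 the other way and 9 were not called.

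Lower in MEFs were Fzd3, Fzd6, Axin2, Wnt8a, Dkk1, Sfrp2 and 15 others. Fzd3 had 6.36, 5.84 and 6.21 in MEFs, against 10.16, 8.57 and 10.04 in P19 cells, a difference of -3.46 ± 0.39 (adjusted p = 2.15e-07), or -3.96 without this aberrant P19 array. Axin2 had 6.46, 6.04 and 6.41 in MEFs, against 8.69, 8.03 and 8.64 in P19 cells (-2.15 ± 0.20, or 4.44-fold lower, adjusted p = 9.89e-09). Even the lowest P19 array was above the highest MEF array for both. Fzd6 was lower by -2.17 ± 0.24, Wnt8a, a ligand of the early embryo, by -1.72 ± 0.36, Dkk1, the head inducer of the Dickkopf family, by -1.61 ± 0.18 and Sfrp2 by -1.59 ± 0.21 (adjusted p = 1.13e-07, 0.000454, 1.16e-07 and 2.30e-06). The aberrant P19 array read 7.18 for Wnt8a, against 5.57 and 5.58 in replicates 1 and 3, which widened that gap. For Sfrp2 it read 7.94, against 9.22 and 9.13, which narrowed that one. Lrp5 and Lrp6 were not called, at 0.12 and 0.54, and the second Lrp6 probe set was lower in MEFs (-0.46, adjusted p = 0.0024). The first Lrp6 probe set gave 0.09 when the aberrant P19 array was left out (adjusted p = 0.603). Without the aberrant P19 array, 7 were higher and 20 lower (24.1% and 31.4% of all genes), Wnt16 and Wnt9b lost their calls and Rspo3 gained one (-1.09, adjusted p = 1.30e-06).

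**Figure D5:**
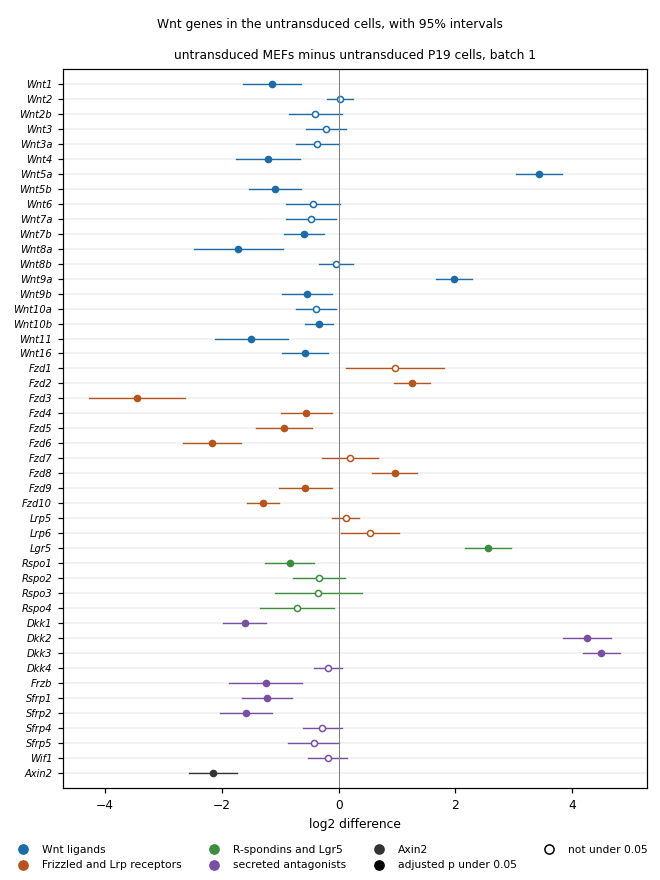
Log2 difference of each Wnt gene (rows, coloured by role) between untransduced MEFs and untransduced P19 cells of batch 1, MEFs minus P19 cells, with 95% intervals; filled points had a limma adjusted p under 0.05. Of the 28 filled points, 7 lie to the right of 0, with Dkk3 and Dkk2 beyond 4, and 21 to the left, with Fzd3 at -3.46.

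Untransduced cells of one type also differed between batches. Of the 47 genes, 7 differed between P19 controls of batch 3 and batch 1 (4 higher and 3 lower in batch 3), where 14.1% of all genes did, and 5 between MEF controls of batch 2 and batch 1 (Dkk2 and Fzd6 lower, Lgr5, Lrp5 and Sfrp2 higher in batch 2), where 2.28% of all genes did. Lrp5 was higher in batch 3 by 2.16 in P19 cells and in batch 2 by 0.73 ± 0.11 in MEFs (adjusted p = 0.000526). Axin2, Rspo1 and Wnt5a were also higher in P19 controls of batch 3, by 0.78, 0.77 and 0.98 (adjusted p = 0.0141, 0.0163 and 0.0021).

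Other genes of the pathway were read through 5 lists. Those for release and membrane modulators (15 measured), non-canonical receptors and planar polarity (18), cytoplasmic transducers (21), Tcf/Lef factors and partners (15) and beta-catenin targets (18) overlap: the target list shares Notum, Znrf3 and Rnf43 with the modulators, Nkd1 with the transducers and Lef1 with the Tcf/Lef list. In MEFs labelled NeuroD2, 5 of 15 modulators rose and 1 fell (median 0.02, against -0.02 over all genes), where 6.41% of all genes rose and 5.94% fell. Notum, an enzyme that removes the lipid of Wnt proteins, had a mean of 9.96 ± 0.05 there, against 5.94 ± 0.05 in the controls (SD, n = 3 each), a rise of 4.02 ± 0.10 (16.2-fold, adjusted p = 5.01e-17). Draxin, a secreted axon repellent that also restrains Wnt signalling, averaged 8.86 ± 0.20, against 5.05 ± 0.30 (3.81 ± 0.14, adjusted p = 5.53e-14). Porcn, the enzyme that adds the lipid and without which Wnt proteins are not released, averaged 11.39 ± 0.06, against 8.02 ± 0.01 (3.37 ± 0.20, or 10.4-fold, adjusted p = 7.73e-11). Wls, the carrier of Wnt proteins to the surface, was not called (-0.23, adjusted p = 0.821). The R-spondin receptor Lgr4 fell by 1.34 ± 0.22 (adjusted p = 0.000154).

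The same cells had 4 rises and 5 falls among the 18 non-canonical and polarity genes (median -0.20), beside the same 6.41% and 5.94% of all genes. Dact1, a partner of Dishevelled, fell by 4.37 ± 0.22 (20.7-fold, adjusted p = 5.62e-12), and Prickle2 and the Wnt5a receptor Ror2 by 1.76 and 1.16. Daam1, a formin that acts after Dishevelled, rose by 1.50. Of the beta-catenin targets 2 rose (Notum and Apcdd1, 4.02 and 2.18) and 3 fell (Ccn4, Ccnd1 and Myc, by 1.88, 1.69 and 1.32), so the list had no single direction (median -0.15). Of the cytoplasmic transducers 1 rose and 1 fell (Nkd2, by 1.72), and of the Tcf/Lef list 0 rose and 0 fell: Lef1, Tcf7l1 and Tcf7l2 differed by -0.24, -0.02 and -0.24 (adjusted p = 0.737, 0.978 and 0.843). Ctnnb1, which encodes beta-catenin, differed by -0.29 and was not called (adjusted p = 0.0912).

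With MyoD in MEFs, where 10.8% of all genes rose and 14.5% fell, 1 of 15 modulators rose and 3 fell (median -0.08). Kremen1, a receptor of Dickkopf proteins, rose by 0.86 ± 0.15 (adjusted p = 0.000126), and Tpbg and Lgr4 fell by 2.01 and 1.61 (adjusted p = 0.00184 and 6.63e-06). Porcn and Wls differed by 0.52 and -0.31 and were not called (adjusted p = 0.0643 and 0.589). Among the 18 polarity genes 3 rose and 8 fell (median -0.31). The scaffold gene Scrib had a mean of 11.61 ± 0.04, against 8.35 ± 0.02 (SD, n = 3 each), a rise of 3.26 ± 0.08 (9.58-fold, adjusted p = 8.44e-18), while Prickle2, Dact1 and Vangl2 fell by 1.91, 1.38 and 1.02. Of the 15 genes of the Tcf/Lef list 0 rose and 4 fell, among them the co-repressor Tle2 by 2.11 and the repressor Tcf7l1 by 0.98 (adjusted p = 1.51e-07 and 0.00129). Lef1 and Tcf7l2 were not called (0.17 and -0.61). Of the 21 cytoplasmic transducers 3 rose, led by Gsk3a (0.68), and 6 fell (median 0.01). Dvl2, Nkd2 and Tnks fell by 0.87, 0.82 and 0.74. Ctnnb1, also among the 6, fell by 0.30 (adjusted p = 0.0481). Of the 18 targets Ccnd1 alone was called, and fell by 0.85 (adjusted p = 0.00766).

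In P19 cells with MyoD, where 2.03% of all genes rose and 0.676% fell, 0 genes of the 5 lists (87 entries, shared genes counted in each) rose and 3 fell: Sp5, a transcription factor that beta-catenin raises, by 1.19 ± 0.22 (adjusted p = 0.00344), the glypican gene Gpc3 by 0.66 and Vangl1 by 0.45. With NeuroD2, where 5.1% of all genes rose and 3.24% fell, the rises were Sp8 (1.78 ± 0.35), the cadherin genes Celsr3 and Celsr2 (1.68 and 0.90), Draxin (1.07 ± 0.14) and Apcdd1 (0.91), and the falls were Sp5, Wtip and Nkd2 (by 0.75, 0.63 and 0.54). Draxin and Apcdd1 rose here as well as in the MEFs labelled NeuroD2. Ctnnb1, Lef1, Tcf7l1, Tcf7l2, Wls and Porcn were not called in P19 cells with either factor. Neuron markers rose in the P19 cells with NeuroD2 (list mean 9.90 to 10.65, against 7.40 to 7.64), and their part in the rises of Celsr3, Frzb and Draxin was not tested.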

How the data were processed

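The 24 Affymetrix arrays were taken as the log2 signals the authors deposited, 1 value per probe set and array. The submitters' processing notes name limma without a version, and how background, normalization and probe summary were handled is not stated in those notes. Of 45101 probe sets, 64 controls, 9160 with no gene symbol and 932 with several were left out. Each of the 18193 genes was read from 1 probe set, that of highest mean signal. Group means of all 8 groups were fitted together with limma 3.58.1 in R 4.3.3 (lmFit and eBayes, 16 residual and 3.89 prior degrees of freedom), and p-values were Benjamini-Hochberg adjusted over all genes at 0.05. The procedure was tested on simulated data. Groups came from titles and source names. The Wnt genes and the pathway and marker lists were chosen with earlier results of these data known. Array values are given for called Wnt genes that differed by at least 1 (at most 6 per direction and comparison), and for Axin2 and Lgr5. From the other lists at most 3 called genes per direction were named, and always Ctnnb1, Lef1, Tcf7l1, Tcf7l2, Wls and Porcn. Kremen2, Tcf7, Aes, T, Plin1 and Runx2 are not analysed here. Alternatives changed the normalization, dim-gene filter, probe set choice, arrays fitted, variance moderation, array weights, control batch, replicate block and single arrays. The number of arrays limits the precision. Promoter windows were read from RefSeq (GRCm38.p6).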

Additional observations from a re-analysis of the deposited data

Results flagged for a closer look

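Each value here is a difference between 2 effects on the log2 scale, tested as an interaction in limma, and was singled out because the effects differed between cell types or between factors at an adjusted p under 0.05. Groups of 3 arrays are too small for a test of single outlying arrays. "NeuroD2 effect" in MEFs means the difference between MEFs labelled NeuroD2 and their controls, in which no Neurod2 probe set rose.

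The effect of MyoD, MEFs minus P19 cells, was higher in MEFs for Wnt4 by 1.982, for Axin2 by 1.535, for Fzd9 by 1.005 and for Fzd10 by 0.7273 (adjusted p between 0.000359 and 0.0226). It was lower in MEFs for Dkk2 (-2.609), Sfrp2 (-2.562), Sfrp1 (-2.156), Dkk3 (-1.941), Wnt5a (-1.787), Lrp6 (-1.514), Fzd5 (-1.156) and Fzd4 (-0.8579), with adjusted p between 3.79e-07 and 0.0449. For Fzd5 the effect was called in neither cell type alone. Medium and harvest time with MyoD also differed between the cell types. The P19 controls here include the aberrant array. It read low for Lrp6 (8.75, against 10.04 and 10.12) and Fzd5 (8.92, against 9.88 and 10.01). So it did for Sfrp2 (7.94, against 9.22 and 9.13) and Fzd4 (8.00, against 8.81 and 9.00), and for Axin2, Wnt4 and Fzd9. A low control reading moves MEFs minus P19 cells down. Dkk2 and Dkk3 were dim in untransduced P19 cells.

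The effect of NeuroD2, MEFs minus P19 cells, was higher in MEFs for Fzd6 (1.687), Wnt5a (1.458), Rspo1 (1.452), Fzd8 (0.8561) and Lrp5 (0.7974). It was lower in MEFs for Sfrp2 (-3.267), Lgr5 (-2.296), Dkk2 (-2.265), Sfrp1 (-2.049), Fzd7 (-1.097), Fzd2 (-0.8924) and Dkk3 (-0.7259). The adjusted p lay between 1.32e-07 and 0.037 over these 12 genes. The MEF pair and the P19 pair were in different batches, so cell type and batch cannot be told apart in these differences. Dkk2 and Dkk3 were dim in untransduced P19 cells, where a fall could hardly be read.

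The MyoD effect minus the NeuroD2 effect in P19 cells was 1.371 for Fzd5, 0.8277 for Lrp5 and -1.068 for Wnt5a (adjusted p = 0.0131, 0.00165 and 0.0201). In MEFs it was 1.919 for Lgr5, 1.477 for Sfrp2, 1.252 for Fzd7, 1.174 for Fzd9 and 0.4747 for Wnt10b, and -4.312 for Wnt5a, -1.507 for Rspo1, -1.397 for Dkk3 and -1.198 for Fzd8 (adjusted p between 1.11e-10 and 0.0482). Fzd5 in P19 cells and Wnt10b in MEFs were called with neither factor alone. A second Fzd5 probe set gave 0.26 and was not called, and Wnt10b was dim in every group. The P19 differences include the aberrant array. Each factor was measured in its own batch, so batch and factor cannot be told apart in these differences. In MEFs the labels name differentiation medium with MyoD only, and no harvest time under the NeuroD2 label. Medium and time cannot be told apart from factor there either.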

How the results depend on the processing

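Counts of called Wnt genes moved with several settings. With array weights the counts were 8 (MyoD in P19 cells, 2 in the report), 26 (MyoD in MEFs, 12), 17 (NeuroD2 in P19 cells, 4), 21 and 23 (MyoD and NeuroD2 effects, MEFs minus P19 cells, 12 each), 12 and 21 (MyoD minus NeuroD2 effect in P19 cells, 3, and in MEFs, 9), and 14 and 16 (batches of P19 cells, 7, and of MEFs, 5). With only the groups compared they were 0 for MyoD in P19 cells, 24 for MyoD in MEFs, 0 and 21 for MyoD minus NeuroD2 in P19 cells and in MEFs, and 0 and 15 for the P19 and MEF batches. With controls of the other batch they were 10 and 15 for MyoD and NeuroD2 in P19 cells. A median shift left 1 for MyoD in P19 cells, renewed quantile normalization gave 9 for the MEF batches, and the mean of all probe sets gave 6 for MyoD minus NeuroD2 in P19 cells and 12 and 9 for the P19 and MEF batches. Leaving out 1 array gave 0 to 18 (MyoD in P19 cells), 9 to 15 (MyoD in MEFs), 3 to 10 (NeuroD2 in P19 cells), 14 to 17 (MEFs labelled NeuroD2), 24 to 35 (untransduced MEFs against P19 cells), 10 to 16 and 9 to 19 (MyoD and NeuroD2 effects, MEFs minus P19 cells), 2 to 7 and 8 to 14 (MyoD minus NeuroD2 in P19 cells and MEFs), and 5 to 19 and 4 to 12 (P19 and MEF batches). The cause of these changes was not tested.

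With controls of the other batch, Lrp5 with NeuroD2 in P19 cells turned to 1.483 (adjusted p = 4.22e-09), and in untransduced MEFs against P19 cells Wnt1, Wnt16, Wnt7b and Wnt9b turned to 0.04466, 0.1583, 0.02444 and 0.04517. With the replicate block the counts were 2, 11, 4, 14 and 28 for MyoD in P19 cells and MEFs, NeuroD2 in P19 cells and MEFs, and MEFs against P19 cells. Arrays with the same number did not deviate together in every pair (r from -0.194 to 0.342), so the numbers were not taken as pairs. Fzd10 lost its call with MyoD in P19 cells in 5 of 16 alternatives and Wnt4 in 4 of 16. With MyoD in MEFs Fzd6 lost it in 9 of 17, Fzd4 in 8 of 17 and Wnt4 in 4 of 17, and Fzd3 with NeuroD2 in P19 cells in 5 of 17. Axin2, Dkk2, Sfrp1, Sfrp2 and Wnt5a kept theirs in both MEF comparisons under every alternative run.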
